A study of Mus musculus with 8 samples.

Results

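Open chromatin was examined at the genes of the beaded filament proteins, Bfsp1 and Bfsp2, and of vimentin, Vim, in the mouse lens. These are 3 of 26180 genes with a curated RefSeq transcript, taken by name, and every peak that overlapped a gene body or the 50 kb on either side of it was kept. That gave 44, 139, 27 and 33 peaks in the lists of E14.5 epithelium, E14.5 fiber, P0.5 epithelium and P0.5 fiber, which merged into 146 of the 185368 open regions of the series. The lists are named in this order, called the usual order, wherever 4 values stand together. ATAC-seq, in which a transposase cuts and tags accessible DNA, had been run on nuclei of lens epithelium and lens fibers micro-dissected from wild-type CD1 mice at E14.5 (mid-gestation embryos) and P0.5 (newborns), with lenses of several animals pooled into each of 8 samples. No treatment or altered allele was involved, and no cell sort is stated. Each of the 4 groups is represented by 1 peak list in which its 2 libraries were pooled. Since replicates cannot be separated in these lists, the values below carry counting error only, no test between groups was possible, and whether a difference exceeds the spread between animals was not tested.

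Intermediate filaments are rope-like polymers that give cells mechanical strength. In most tissues that derive from mesenchyme, and also in the lens, they are built from vimentin, a protein that lens epithelial cells and young fibers share. As epithelial cells elongate into fibers they add the beaded filament, a polymer found in the lens fiber alone, made of filensin (from Bfsp1) and phakinin, also called CP49 (from Bfsp2). Both proteins belong to the intermediate filament family although the polymer that they form looks beaded rather than smooth, and mutations in either gene cause cataract.

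Bfsp1 lies on the minus strand of chromosome 2 (chr2:143826528-143863173, mm10, 36.6 kb, 8 exons), with the 3′ end of Pcsk2, a prohormone convertase gene, 10.2 kb beyond its own 3′ end. Bfsp2 lies on the minus strand of chromosome 9 (chr9:103424924-103480248, 55.3 kb). It has 2 curated start sites, the outer of which is used as its start here and the inner of which is 31.1 kb downstream. A long non-coding RNA gene on the opposite strand, 5830418P13Rik (chr9:103423578-103461260), overlaps most of the Bfsp2 body, from its 3′ end onward. Reads of ATAC-seq cannot tell the 2 genes apart there, so the coverage of Bfsp2 is in large part shared with it. Tmem108, a membrane protein gene, ends 2.69 kb upstream of the Bfsp2 start. Vim is the shortest of the 3, on the plus strand of chromosome 2 (chr2:13574311-13582826, 8.5 kb, 9 exons), and its nearest neighbour is Trdmt1, an RNA methyltransferase gene 29.6 kb upstream.

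Each gene had a promoter peak in all 4 lists, and the 250 bases before the start sites of Bfsp1 and Vim, which the E14.5 fiber peak spanned whole, are printed because the rest of the account refers back to them. Both were read 5′ to 3′ on the strand of the gene from the GRCm38.p6 genome of RefSeq, and capitals mark the consensus letters that are described with the motifs further on.
Bfsp1, chr2:143863174-143863423, minus strand: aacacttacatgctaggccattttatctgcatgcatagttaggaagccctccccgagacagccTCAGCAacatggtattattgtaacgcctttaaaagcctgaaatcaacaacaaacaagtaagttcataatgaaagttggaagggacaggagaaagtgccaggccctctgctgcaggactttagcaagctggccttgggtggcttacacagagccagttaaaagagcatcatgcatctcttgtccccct
Vim, chr2:13574061-13574310, plus strand: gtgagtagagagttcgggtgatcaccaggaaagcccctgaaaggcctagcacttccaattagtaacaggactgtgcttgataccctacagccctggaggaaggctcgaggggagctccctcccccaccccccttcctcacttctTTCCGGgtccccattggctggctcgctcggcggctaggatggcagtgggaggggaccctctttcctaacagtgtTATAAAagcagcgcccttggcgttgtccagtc
The Bfsp1 stretch had a GC content of 46.4% and that of Vim 58.4%, with a median of 56.0% over 26237 upstream windows of protein-coding genes. CpG dinucleotides had an observed-to-expected ratio of 0.149 before Bfsp1 and 0.376 before Vim, against 0.544 in the median window. In that measure 16.4% and 37.7% of windows were lower than Bfsp1 and Vim.

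Outside any promoter, the highest-ranked peak of each gene is shown by the 200 bases centred on its summit, on the plus strand, since these are the strongest distal candidates at each locus. All 3 came from the E14.5 fiber list.
Bfsp1, at -4.301 kb, chr2:143867374-143867573: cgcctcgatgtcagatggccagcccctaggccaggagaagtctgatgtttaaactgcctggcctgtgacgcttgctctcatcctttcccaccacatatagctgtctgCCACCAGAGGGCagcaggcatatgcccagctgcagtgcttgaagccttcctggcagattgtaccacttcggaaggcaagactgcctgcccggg
Bfsp2, in an intron 45.9 kb downstream of the outer start, chr9:103434276-103434475: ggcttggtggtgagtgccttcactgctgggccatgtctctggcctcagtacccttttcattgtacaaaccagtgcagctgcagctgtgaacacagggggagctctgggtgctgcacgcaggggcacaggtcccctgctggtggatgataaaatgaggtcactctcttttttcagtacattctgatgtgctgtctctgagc
Vim, at -2.975 kb, chr2:13571236-13571435: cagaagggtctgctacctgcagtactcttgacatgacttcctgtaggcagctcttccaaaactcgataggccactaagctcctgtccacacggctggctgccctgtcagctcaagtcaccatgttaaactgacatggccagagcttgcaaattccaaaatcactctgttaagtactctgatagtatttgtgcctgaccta
These peaks ranked within the top 8.68%, 6.54% and 9.23% of that list. The Bfsp1 and Vim sites lie between genes, and the Bfsp2 site lies inside 5830418P13Rik as well.

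The labels were checked against marker genes by the share of the gene body under peaks. All 5 fiber markers (Cryga, Crygb, Mip, Lim2 and Crybb1) were covered more in fibers than in epithelium at both stages, with a median of 100% in the E14.5 fiber list against 6.32% in its epithelium, and of 24.0% against 1.0% in newborns. The 4 epithelial markers gave a mixed picture: Cdh1 had 9.28% in epithelium against 5.99% in fibers at E14.5, but Foxe3, Pax6 and Pdgfra were covered more in the E14.5 fiber list. In newborns 3 of the 4 were covered more in epithelium, with 67.3% against 56.9% for Foxe3, 3.27% against 0.277% for Cdh1 and 17.2% against 16.1% for Pax6. Markers of other tissues were low, with medians between 0.434% and 2.58% for the vascular genes Cdh5 and Pecam1, and 0% in 3 of 4 lists for the corneal genes Krt12 and Krt5. The retinal gene Rax was covered to between 8.99% and 26.7%, and its part in the results was not tested. The lists held between 58592 peaks (P0.5 epithelium) and 123743 peaks (E14.5 fiber). The deposited fold enrichments and p-values fix the number of sequenced fragments over each summit, which came out whole within 0.001 for 100% of peaks. They rest on 1 genome-wide background per list, which was 1.61, 2.37, 1.36 and 1.16 fragments per base in the usual order, so that the E14.5 fiber list was the deepest and the P0.5 fiber list the shallowest. Signal is given below as fragments and as fragments divided by that background.

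In the deposited lists, peaks lay over more than 50% of Bfsp1 and Bfsp2 in E14.5 fibers and over a few percent of them elsewhere, whereas Vim was open at its 5′ end in every list. In E14.5 fiber, peaks covered 74.7% of the Bfsp1 gene body, against 5.01% in epithelium of that age, and newborn epithelium and fiber had 2.28% and 6.03%. For Bfsp2 the shares, in the order E14.5 epithelium, E14.5 fiber, P0.5 epithelium, P0.5 fiber, were 5.83%, 52.6%, 2.71% and 2.89%. In the same order Vim had 16.3%, 26.3%, 8.67% and 9.16%. The E14.5 fiber list thus held the highest share for all 3 genes, and the order of the other 3 lists is not given because for Bfsp1 and Bfsp2 it changed with the q value. At least 50% of the body was covered in E14.5 fiber for 2 of the 3 genes, which 3.77% of 19556 protein-coding genes of at least 1 kb reached. This does not hold for Bfsp2 with equal numbers of peaks in each list, at 40.6%, nor for Bfsp1 with predicted transcripts included, at 34.3%. Bfsp1 stood at rank 227 and Bfsp2 at rank 667 among those genes in that list, and at ranks 3748 and 6401 in P0.5 fiber. Because short genes are covered more easily, each gene was also set beside genes within 1.5-fold of its own length. By that measure Bfsp1 in E14.5 fiber was above 99.9% of 4003 genes with a median of 3.41%, Bfsp2 above 99.7% of 3216 genes with a median of 2.82%, and Vim above 87.4% of 3702 genes with a median of 8.42%.

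**Figure D1:**
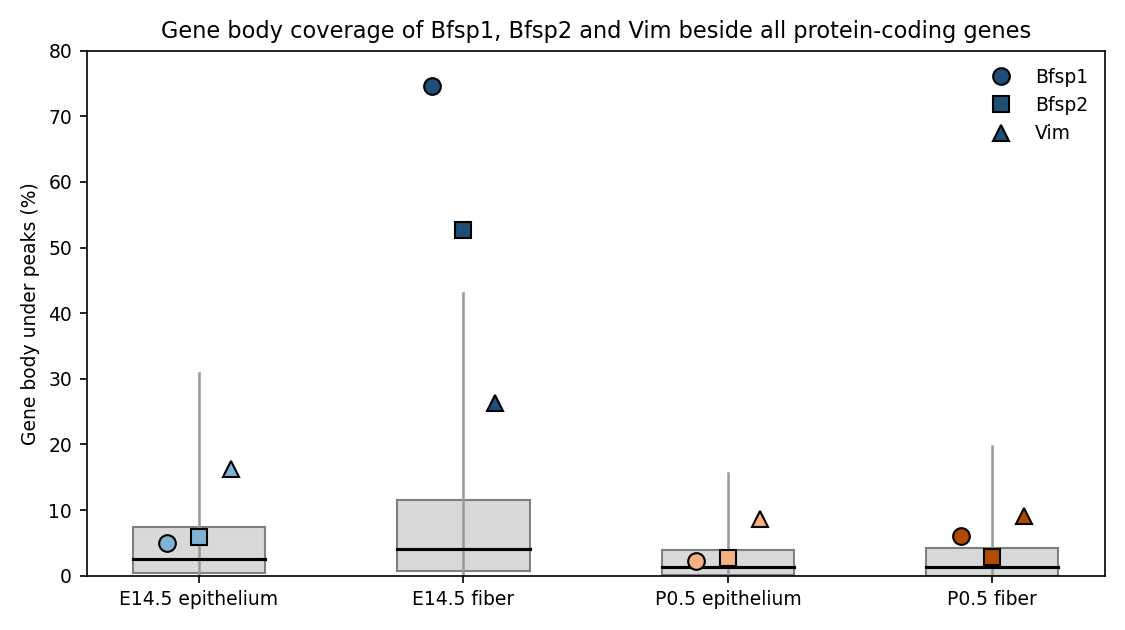
Share of the gene body under peaks (y axis, percent) in each of the 4 pooled lists (x axis) for Bfsp1 (circles), Bfsp2 (squares) and Vim (triangles), beside all 19556 protein-coding genes of at least 1 kb (line at the median, box from percentile 25 to 75, whisker from 5 to 95). Bfsp1 at 74.7% and Bfsp2 at 52.6% lie above the whisker, which ends at 43.1%, in the E14.5 fiber list alone.

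The difference between fibers and epithelium at E14.5 was 69.7 percentage points for Bfsp1, 46.8 for Bfsp2 and 9.93 for Vim, against a median of 0.723 over all genes. Only 14 genes had a larger difference than Bfsp1, which took rank 15, and Bfsp2 took rank 70 and Vim rank 1829. At P0.5 the differences were 3.75, 0.181 and 0.493 points, at ranks 1876, 6063 and 5018, and the median over all genes was 0. At a q value under 0.001 the Bfsp1 value was 1.99 and the Bfsp2 value turned to -0.981, and with predicted transcripts the Bfsp1 value was 1.40. The E14.5 fiber list is longer and deeper than the others. When each list was reduced to its strongest 58592 peaks, the E14.5 difference was 66.3 points for Bfsp1, 35.9 for Bfsp2 and 13.3 for Vim. Outside the first 2 kb of the gene it was 71.9 points for Bfsp1 but 1.197 for Vim. The Bfsp1 value also depends on the gene model: with predicted transcripts included it was 30.7 points.

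At Bfsp1, filensin, the E14.5 fiber list held 49 peaks, against 9 in epithelium of that age and 4 and 15 in newborn epithelium and fiber. The peaks of E14.5 fiber were wide, with a median of 548 bp against 298 bp for the whole list. When the gene was cut into 10 equal parts from the 5′ end, coverage in E14.5 fiber ran from 55.7% to 89.4% and was over 50% in all 10. Of these parts 6 had no peak in E14.5 epithelium, 7 lacked one in newborn epithelium and 4 in newborn fiber. Exons and introns were both covered, at 97.4% and 73.1%. Coverage did not stop at the 3′ end: the first 10 kb downstream was 94.7% covered in E14.5 fiber, which 99.97% of genes stayed under, and held no peak in either epithelium list. The widest single peak of the locus, 6370 bp, lay there, between Bfsp1 and Pcsk2. In contrast the 40 kb from 10 to 50 kb upstream held no peak in 3 lists and was 0.385% covered in P0.5 fiber.

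When peaks of E14.5 fiber at most 1 kb apart were chained together, the block at the Bfsp1 start ran for 57.2 kb, from -0.351 kb at the start to 20.2 kb past the 3′ end of the gene, into Pcsk2. It consisted of 41 peaks that filled 74.5% of it, and only 3 of 19556 genes had a longer block at their start. The whole of Pcsk2 was covered to 2.42% in that list. In the other 3 lists the block at the Bfsp1 start was the promoter peak alone, of 0.688 to 0.903 kb. The length of the block in E14.5 fiber rests on the gap allowed: it was 6.93 kb with gaps of at most 500 bp and 61.5 kb with gaps of at most 2 kb.

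**Figure D2:**
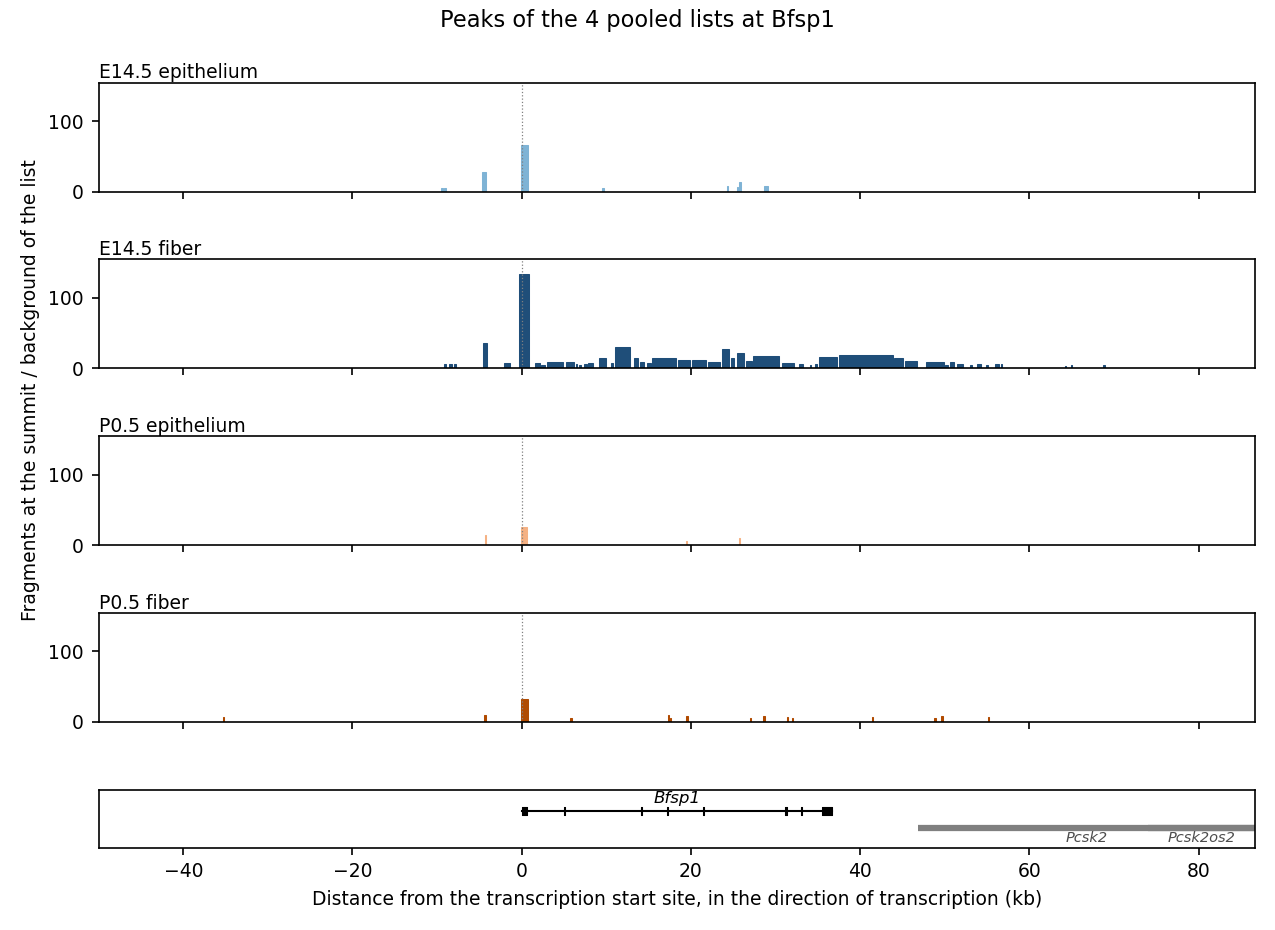
Peaks at Bfsp1 in the 4 pooled lists. The x axis is the distance from the start site in kb along transcription, bar width is the extent of a peak, bar height (y axis, the same in all panels) is fragments at the summit divided by the background of the list, and the lowest panel shows exons (black boxes) and neighbouring genes (grey). The E14.5 fiber panel is filled over the gene and the 10 kb after it, where 94.7% lay under peaks, and its highest bar is the promoter at 134.

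The highest Bfsp1 region of the gene body after the promoter, 11.4 kb downstream of the start in an intron, had 71 fragments (29.9 times background) in E14.5 fiber and no peak in the other 3 lists. Another intronic region at 24.3 kb had 64 fragments in E14.5 fiber and 13 in E14.5 epithelium. A further one at 25.8 kb had 52 fragments in E14.5 fiber, 22 in epithelium of that age and 14 in newborn epithelium, and newborn fiber lacked it. Beyond the gene, the region around 42.4 kb from the start had 46 fragments in E14.5 fiber, and in P0.5 fiber 8 at a summit 41.5 kb from the start. The site at -4.301 kb, whose sequence is printed above, was the sole region besides the promoter that all 4 lists called, with 44, 86, 20 and 12 fragments in the usual order of lists. In multiples of the background these are 27.4, 36.3, 14.8 and 10.4. Relative to the median region, newborn over embryo was 0.818 (0.457 to 1.42) in epithelium and 0.645 (0.321 to 1.19) in fiber, and both 95% counting intervals include 1.

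At Bfsp2, phakinin, the lists held 23, 79, 17 and 14 peaks in the usual order. The E14.5 fiber coverage was uneven. Of 10 equal parts from the 5′ end, the first 4 were covered to between 60.1% and 75.1%, the fifth to 9.56%, and the last 2 to 55.1% and 65.5%. The low part lies upstream of the inner start site. A region within 2 kb of that start, with its summit 30.05 kb from the outer start, was called in E14.5 fiber alone, with 26 fragments against 221 at the outer start. The block of chained E14.5 fiber peaks at the outer start was 23.6 kb long, at rank 23 among genes, and ended 22.5 kb into the gene. It was 2.99 kb with gaps of at most 500 bp and 25.6 kb with gaps of at most 2 kb. The 10 kb upstream of Bfsp2 was covered to 51.7% in E14.5 fiber and 14.0% in P0.5 fiber, against 11.5% and 5.70% in the epithelium of the 2 stages. In P0.5 fiber 96.4% of genes had less, but part of this window lies in Tmem108. The first 10 kb beyond the 3′ end was 67.3% covered in E14.5 fiber, and includes the start of 5830418P13Rik. The whole of 5830418P13Rik was covered to 43.8% in that list.

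**Figure D3:**
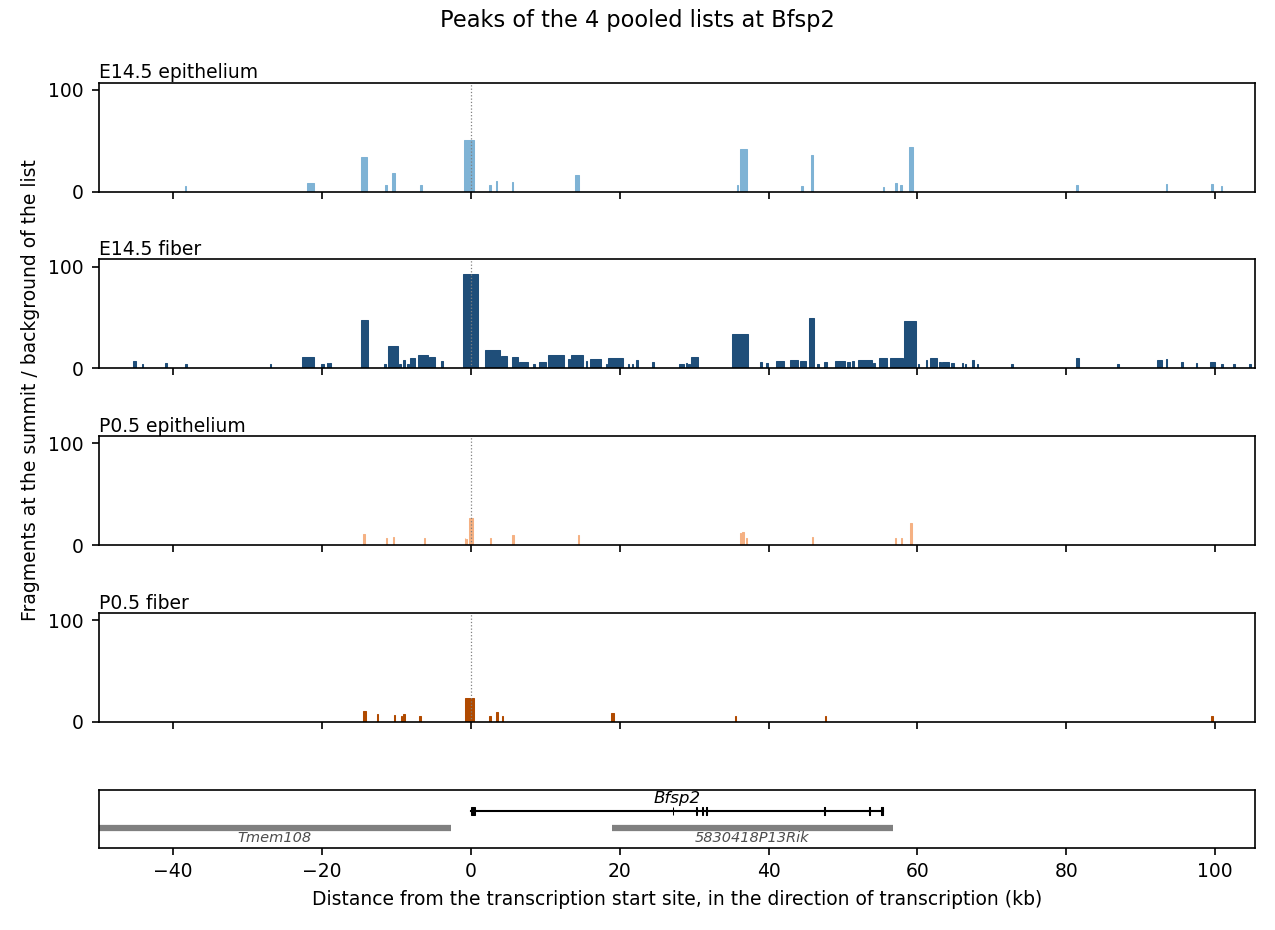
Peaks at Bfsp2, drawn as for Bfsp1: distance from the outer start site in kb (x axis) and fragments at the summit divided by the background of the list (y axis, the same in all panels), with exons in black and neighbouring genes in grey. Tall peaks at the start and at -14.3, 36.6, 45.9 and 59.2 kb are seen in both E14.5 lists, and E14.5 fiber has many low peaks between them.

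Bfsp2 had 4 distal regions with 54 to 71 fragments in E14.5 epithelium, where its promoter had 81. The intronic region 36.6 kb from the outer start, which also lies inside 5830418P13Rik, had 67, 81 and 17 fragments in the first 3 lists. The P0.5 fiber peak merged with it, of 7 fragments, had its summit at 35.56 kb and overlapped the E14.5 fiber peak alone. Over background the E14.5 values were 41.7 in epithelium and 34.1 in fiber, and fiber over epithelium was 0.879 (0.628 to 1.23) relative to the median region, which does not differ beyond counting error. The intronic site at 45.9 kb, printed above, had 57, 118 and 11 fragments in the first 3 lists and was not called in P0.5 fiber. Upstream, the region at -14.3 kb, inside Tmem108, had 54, 112, 15 and 13 fragments, and the region at -10.4 kb had 30, 52, 11 and 8. Just past the 3′ end, a region with its summit at 59.2 kb, which reached to within 2 kb of the start of 5830418P13Rik, had 71, 111 and 29 fragments and no peak in P0.5 fiber.

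At Vim the lists held 12, 11, 6 and 4 peaks. Apart from a single low peak of 7 fragments in E14.5 epithelium, 3.86 kb into the gene, every peak in the gene body belonged to the promoter. Of 10 equal parts of the gene, E14.5 fiber covered the first and second to 100%, the third to 62.6% and the other 7 not at all, and in newborns 9 of 10 had no peak in either tissue. The promoter peak of E14.5 fiber was 3663 bp wide, against 1740 bp in epithelium of the same age and 1578 bp in newborn epithelium. In E14.5 epithelium 5 peaks touched the 2 kb on either side of the start, where E14.5 fiber had 2. The site at -2.975 kb, printed above, had 52, 80 and 33 fragments in the first 3 lists, or 32.3, 33.7 and 24.3 times background, and it was not called in P0.5 fiber. A site between it and the main promoter peak, at -1.96 kb and so within 2 kb of the start, was called in all 4 lists at 14, 25, 10 and 10 fragments. Beyond the 3′ end, no peak was called within 50 kb in E14.5 epithelium or at P0.5, and 3 low peaks of 11 to 21 fragments were called in E14.5 fiber. Further upstream, a region with 104, 107, 61 and 15 fragments was the promoter of Trdmt1.

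**Figure D4:**
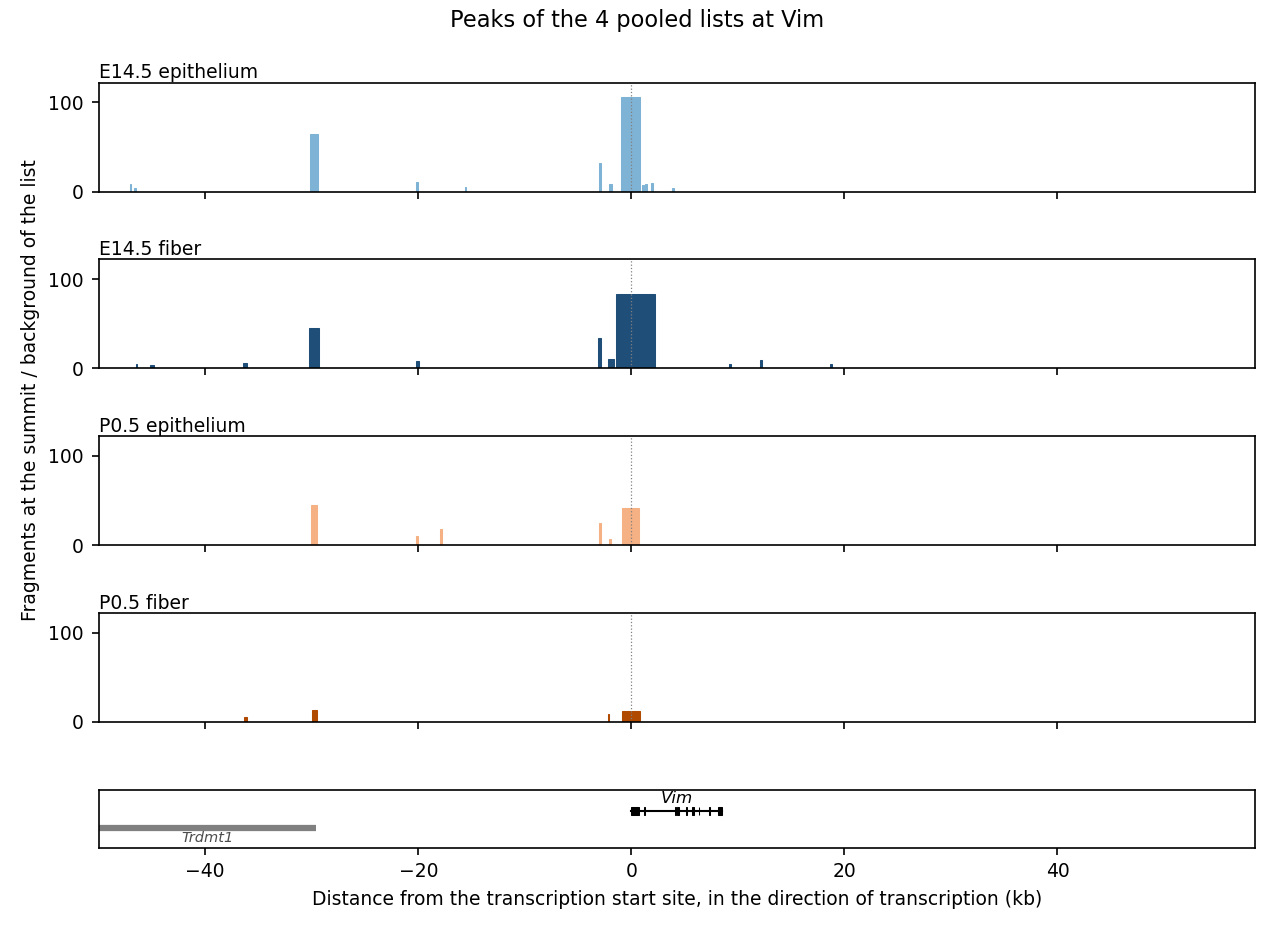
Peaks at Vim, drawn as for Bfsp1: distance from the start site in kb (x axis) and fragments at the summit divided by the background of the list (y axis, the same in all panels), with exons in black and the neighbouring gene in grey. The promoter is the tallest bar in the E14.5 lists, at 106 in epithelium and 83.9 in fiber, while in newborns the Trdmt1 promoter at -29.8 kb is taller, at 45.0 against 41.3 in epithelium and 13.0 against 12.1 in fiber.

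Promoters were compared by the highest summit among the peaks that overlapped the 2 kb on either side of a start. A peak there is common: 70.3%, 71.2%, 67% and 64.6% of 21000 protein-coding genes had one in the 4 lists, in the usual order, so having it in all 4 lists says little about these genes. The Bfsp1 promoter had 106, 319, 35 and 38 fragments in that order. By fold enrichment it ranked in the top 5.53%, 0.882%, 13.9% and 1.22% of the lists, and over background it had 65.9, 134, 25.8 and 32.8. The Bfsp2 promoter had 81, 221, 36 and 27 fragments, ranks in the top 7.68%, 2.79%, 13.3% and 3.82%, and 50.4, 93.2, 26.6 and 23.3 over background. Vim had 171, 199, 56 and 14 fragments, ranks in the top 2.24%, 3.43%, 5.61% and 14.0%, and 106, 83.9, 41.3 and 12.1 over background. A rank places a promoter within its own list only, since the lists differ in length and depth: for Bfsp2 the newborn fiber rank was better than the newborn epithelium rank while its level over background was lower. Among promoters that had a peak, 93.5% had fewer fragments than Bfsp1 in P0.5 fiber and 79.5% had fewer than Bfsp2, but only 36.7% had fewer than Vim. In P0.5 epithelium these shares were 45.9%, 47.7% and 75.1%.

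The position of the promoter summit varied little for Bfsp1 and Bfsp2. It lay in the first exon of Bfsp1, at 102 to 170 bp from the start, and just before the outer start of Bfsp2, between -126 and -73 bp. For Vim it was at -62 bp in both E14.5 lists and at -92 bp in P0.5 epithelium, but at -360 bp in P0.5 fiber, where the peak had 14 fragments with a counting interval of 7.65 to 23.5.

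A ratio of fragments over background was then taken between lists for each region that both had called, and divided by the median ratio of all such regions, since the lists differ in overall enrichment. Each list enters with its highest peak in the merged region, so the summits compared can lie apart. For fiber over epithelium that median was 0.932 in embryos and 0.620 in newborns, and for newborn over embryo it was 0.659 in epithelium and 0.443 in fiber. Intervals are exact 95% intervals for 2 counts and cover counting error only. For the Bfsp1 promoter, fiber over epithelium was 2.19 (1.75 to 2.75) in embryos and 2.05 (1.26 to 3.34) in newborns, which lies above 96.4% and 93.9% of regions. For the Bfsp2 promoter it was 1.98 (1.53 to 2.59) and 1.42 (0.827 to 2.399), so the P0.5 interval includes no difference from the median region. The Vim promoter gave 0.846 (0.686 to 1.04) in embryos and 0.472 (0.243 to 0.860) in newborns, where 4.15% of regions were lower. Between the stages all 3 promoters were below the median region in fibers, at 0.551 (0.383 to 0.773) for Bfsp1, 0.565 (0.364 to 0.845) for Bfsp2 and 0.325 (0.175 to 0.559) for Vim. In epithelium the values were 0.594 (0.393 to 0.878), 0.80 (0.525 to 1.199) and 0.589 (0.428 to 0.801). Some of these depend on the reference. Against the median of promoter regions alone, newborn over embryo in fibers was 0.856 (0.595 to 1.201) for Bfsp1, 0.878 (0.566 to 1.31) for Bfsp2 and 0.506 (0.271 to 0.869) for Vim, and in epithelium it was 0.704 (0.466 to 1.04) for Bfsp1 and 0.699 (0.507 to 0.9499) for Vim. The intervals of Vim thus lay below 1 in both tissues by either reference, and those of Bfsp1 only against the median of all regions. Against promoters alone, fiber over epithelium at the Vim promoter at E14.5 was 0.778 (0.631 to 0.960), with an interval below 1.

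**Figure D5:**
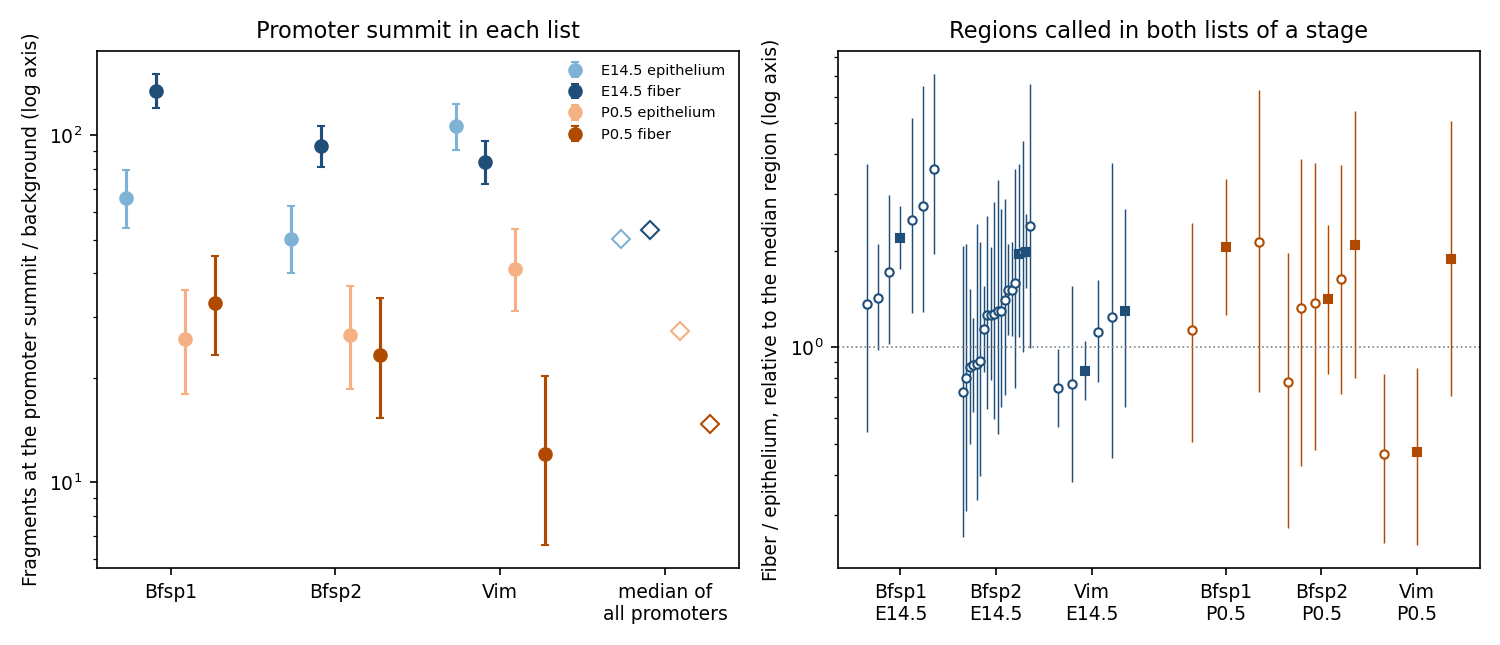
Left, fragments at the promoter summit divided by the background of the list (log axis), with exact 95% counting intervals, for the 3 genes in the 4 lists, and the median over all promoters that had a peak (open diamonds). Right, fiber over epithelium for each region called in both lists of a stage, relative to the median region (log axis, dotted line at 1), with exact 95% counting intervals. Filled squares are regions that overlap the 2 kb on either side of a start of the gene itself. Open circles are all others, also those at the start of a neighbouring gene. Every Bfsp1 point lies above 1. The main Vim promoter region, with its summit at the start, lies below 1 in both stages, at 0.846 and 0.472. The second filled square of Vim, at -1.96 kb, lies above 1, at 1.30 (0.650 to 2.70) in embryos and 1.89 (0.706 to 5.06) in newborns, and both intervals include 1.

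Over all regions called in both E14.5 lists, fiber over epithelium was above the median region for 7 of 7 regions at Bfsp1, 14 of 20 at Bfsp2 and 3 of 6 at Vim. It was at least 2-fold above it in 5 of the 33 and at least 2-fold below it in 0, where 5.23% and 6.94% of the 61393 regions of the series passed these limits. Of the 5, 4 were at Bfsp1 and 1 was at the 3′ end of Bfsp2, within 2 kb of the start of 5830418P13Rik as well. That Bfsp2 region had 7 fragments in E14.5 epithelium, and its ratio of 2.39 (0.993 to 6.59) has an interval that includes 1. The highest of the 5 was the intronic Bfsp1 region at 24.3 kb, at 3.58 (1.95 to 7.09). At P0.5 only 12 regions were called in both tissues, of which 3 were at least 2-fold above and 2 at least 2-fold below, against 6.46% and 5.99% of 21622. Of the 3 high ones, only the Bfsp1 promoter had an interval above 1. The Bfsp1 region at 19.6 kb, at 2.125 (0.728 to 6.33), and the Bfsp2 region at 3.56 kb, at 2.08 (0.801 to 5.46), were within counting error. Both of the low ones were at the Vim locus, namely its promoter and the Trdmt1 promoter, at 0.464 (0.245 to 0.827). Between stages, 0 of 20 epithelial regions were 2-fold above and 3 were at least 2-fold below, against 7.37% and 5.32% of 40332. The 3 were the Bfsp2 regions at 36.6 kb, at 0.457 (0.251 to 0.787), at 45.9 kb, at 0.347 (0.164 to 0.669), and at -14.3 kb, at 0.50 (0.262 to 0.899), which is on the limit. In fibers, 7 of 27 regions were 2-fold above and 2 below, against 26.3% and 17.5% of 29604. The 7 above had 7 to 10 fragments in P0.5 fiber, where a peak has at least 6, and 2 of their intervals lay above 1. The 2 below were the Vim promoter and the Bfsp2 region at 36.6 kb, whose summits in the 2 fiber lists lie apart.

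At Bfsp1, 34 of 51 merged regions (66.7%) were called in E14.5 fiber alone, and at Bfsp2 54 of 80 (67.5%), against 29.3% of the regions of the series. At Vim it was 4 of 15 (26.7%). Regions called in both fiber lists and in neither epithelium list made up 7 of 51 (13.7%) at Bfsp1, 5 of 80 (6.25%) at Bfsp2 and 1 of 15 at Vim, and 2.43% of the series. In the opposite pattern, called in both epithelium lists and in neither fiber list, there were 0 at all 3 genes and 2.28% in the series. That count says little, since E14.5 fiber peaks covered 74.7% of Bfsp1 and 52.6% of Bfsp2. An epithelial peak in these bodies would often have merged with a fiber peak. All 4 lists shared 2 regions (3.92%) at Bfsp1, 6 (7.5%) at Bfsp2 and 3 (20%) at Vim, and 10.9% of the regions of the series. At Bfsp1 the 7 fiber regions lay in the gene body and downstream of it, at 5.98, 16.0, 26.9, 31.2, 42.4, 49.8 and 55.2 kb from the start, with 11 to 46 fragments in E14.5 fiber and 7 to 11 in P0.5 fiber. The last 2 lie in the 3′ part of Pcsk2. These P0.5 summits are near the fewest fragments that a peak of that list can have, which is 6. At a q value under 0.001, P0.5 fiber peaks of 8 fragments or fewer are lost, such as the one at 55.2 kb with a −log10 q value of 2.76. The shares of this pattern thus depend on the q value.

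The other genes of the same family that were looked at were covered less in E14.5 fiber than Bfsp1 and Bfsp2. In a list of 12 intermediate filament genes (Des, Gfap, Prph, Nes, Synm, Nefl, Nefm, Nefh, Ina, Krt8, Krt18 and Lmna), 0 had at least 50% of the body covered in E14.5 fiber. Since 3.77% of all genes did, a count of 0 in 12 says little. The median difference of the 12 genes between fibers and epithelium at E14.5 was 2.47 points against 0.723 over all genes. Of these, 9 of 12 had the higher share in fibers at E14.5 and 7 of 12 at P0.5, beside 12895 and 7179 of 19556 genes. Synm, whose product synemin joins vimentin filaments, was the one with the largest difference, with 8.46% in epithelium and 40.02% in fiber at E14.5. Vim itself lay close to Lmna, the gene of the nuclear lamins A and C, which had 17.2%, 20.4%, 8.91% and 11.7% in the 4 lists, and Nes, the gene of nestin, had 30.9%, 36.4%, 16.8% and 5.22%, above Vim in 3 lists and below it in P0.5 fiber.

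Genes whose products meet the fiber cytoskeleton or membrane were mixed. In a list of 12 (Mip, Cryaa, Cryab, Tmod1, Plec, Ppl, Evpl, Sptan1, Sptbn1, Lim2, Ank2 and Nrcam) the median coverage was 5.398%, 26.5%, 1.52% and 6.39% in the usual order. At E14.5 10 of 12 had the higher share in fibers and at P0.5 9 of 12, where 12895 and 7179 of 19556 genes did. At least 50% was reached in E14.5 fiber by 4 of them, Mip, Cryaa, Cryab and Lim2, where 3.77% of all genes reached it. The crystallin chaperone genes among these were also covered in epithelium of that age, Cryaa to 100% and Cryab to 42.4% against 72.5% in fiber. Mip, the fiber water channel aquaporin 0, had 27.8% in epithelium and 100% in fiber at that age, and Lim2, a fiber membrane protein, 6.32% and 73.1%. Tmod1, which caps actin filaments, had 3.87% and 24.3%, and Sptan1, the alpha spectrin of the membrane skeleton, 3.56% and 28.7%. Ppl, periplakin, a linker of intermediate filaments, had 4.07% and 12.5%, and its relative Evpl, envoplakin, 16.8% and 13.5%. Mip and Lim2 also stand in the list of fiber markers, and the lists were drawn up with earlier results of these data known.

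By the 4 coverage percentiles together, the genes most like Bfsp1 were Etfb, Rspo1, Epn1, Bccip and Galnt2, at distances of 7.46 to 12.3 percentile points. None of these came near its level in E14.5 fiber, with 26.0% to 42.0% against 74.7%. Bfsp2 was nearest to Dnmbp, Rac1, Bccip, Epb41l4a and Ell2, at 7.76 to 9.23 points, whose E14.5 fiber shares were 27.4% to 37.1% against 52.6%. For Vim the nearest were Dhrs13, Mrpl28, Coro7, Tmem201 and Tmem134, at 1.38 to 2.23 points, and all 5 were within 2 percentage points of Vim in each list. The likeness was taken over 4 lists only, and percentiles compress differences at the top of the range.

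Consensus letters of 11 motifs were searched on both strands: Maf TGCTGA, AP-1 TGANTCA, Sox ATTGTT, Tead GGAATG, Hsf GAANNTTC, Pitx TAATCC, Ets CCGGAA, Sp1 GGGCGG, the palindromic NF1 site, the CTCF core and the TATA box TATAAA, the last 2 of which were added after the sequences had been seen. The Maf and AP-1 letters can overlap. Before Bfsp1 there was 1 Maf match, which 14.4% of upstream windows have. Before Vim there was 1 Ets match (14.8%) and 1 TATA box (11.1%), which starts at base 219 of the 250. Of the distal windows, that of Bfsp1 had 1 CTCF match, which 5.50% of E14.5 fiber peaks have, and those of Bfsp2 and Vim had no match to any of the 11.

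Over all E14.5 fiber peaks of each locus, the same letters were set beside their share in the whole list. Pitx letters were in 9 of 49 Bfsp1 peaks (18.4%) and 9 of 79 Bfsp2 peaks (11.4%), against 5.85% of the list, and in 0 of 11 at Vim. Sox letters were in 9 of 49 (18.4%) at Bfsp1, 4 of 79 (5.06%) at Bfsp2 and 3 of 11 at Vim, against 7.59%. For Hsf, the heat shock factor family, it was 4 of 49 (8.16%), 8 of 79 (10.1%) and 1 of 11, against 3.94%. Maf letters were in 12 of 49 (24.5%), 19 of 79 (24.1%) and 3 of 11, against 24.7%, so their share was that of the list. Sp1 letters were less common at Bfsp1 (6.12%) and Bfsp2 (5.06%) than in the list (13.1%). For Bfsp1, Bfsp2 and the list, Ets letters were in 2.04%, 1.27% and 5.48%, and AP-1 letters in 0%, 8.86% and 6.77%. Tead letters were in 14.3%, 17.7% and 12.5%, CTCF letters in 6.12%, 3.80% and 5.50%, and TATA box letters in 2.04%, 7.59% and 4.90%. The NF1 site was in 0% of the peaks of both genes and in 0.0331% of the list. Since the members' windows are few and many lie side by side, these shares are descriptions, and nothing on the binding of a factor follows from them.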

How the data were processed

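ATAC-seq had been run on 8 libraries, 2 from each of 4 groups. Per the submitters' notes and the study's methods, the authors trimmed the reads (Trim Galore 0.4.1), aligned them to mm10 (Bowtie2 2.3.3.1), removed mitochondrial and duplicate reads (SAMtools 1.2, Picard 2.1.1), pooled the 2 libraries of each group and called peaks on paired fragments with MACS2 2.1 at a q value of 0.05. The deposited lists give each peak's fold enrichment at the summit, which is a ratio of fragments plus 1 to background plus 1. They also hold the authors' −log10 p and −log10 q values and the MACS2 score, which is 10 times the −log10 q value. Pooling removed the spread between libraries, so intervals are exact 95% Poisson or binomial intervals for counting error, no p-value was computed, and fold enrichment rests on 1 genome-wide background per list, not on a local one.

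Fragments at each summit were recovered from the fold enrichment and the p-value (tested on simulated data). Genes came from curated RefSeq transcripts on GRCm38. Peaks overlapping a gene body or its 50 kb flanks by at least 1 bp were taken, peaks of the 4 lists within 10 bp of each other were merged into regions, and a promoter was the 2 kb on either side of a start. Coverage is the share of a gene body under peaks, ranked among protein-coding genes 1 kb or longer. The genes were given by name, and the 5 genes nearest in coverage percentiles were named beside each. The members and gene lists were chosen with earlier results of these data known. Alternatives were a q value under 0.001, equal numbers of peaks, other flanks, promoter and merging distances, predicted transcripts, leaving out the first 2 kb, and other medians. The block gaps and 2 motifs were added after the data were seen. Python 3.11.15, numpy 2.4.6, pandas 2.3.3, scipy 1.17.1, pysam 0.24.0 and matplotlib 3.10.9 were used. A marker gene and an upstream sequence are not reported here.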

Additional observations from a re-analysis of the deposited data

How the results depend on the processing

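Of 124 values computed under an alternative, 24 moved, 2 reversed and 98 did neither. For coverage, moving was judged by a binomial interval over single bases, which are not independent, so it is a rule and not a test, and ranks by p-value could not move because fold and p-value share 1 background. The fiber minus epithelium coverage of Bfsp1 at E14.5 (69.7 points) was 66.3 with equal numbers of peaks, 71.9 without the first 2 kb and 30.7 with predicted transcripts, and in newborns (3.75) it was 1.99 at a q value under 0.001, 3.33 with equal numbers, 3.44 without the first 2 kb and 1.40 with predicted transcripts. For Bfsp2 the E14.5 value (46.8) was 45.0 at the stricter q value and 35.9 with equal numbers, and the newborn value (0.181) reversed to -0.981 at the stricter q value and to -0.0263 without the first 2 kb, so no direction is given for it. For Vim the E14.5 value (9.93) was 11.2, 13.3 and 1.197 with the stricter q value, equal numbers and without the first 2 kb, and in newborns (0.493) it was 0 without the first 2 kb. The number of peaks at the 3 genes was 23 with equal numbers and 71 with flanks of 100 kb in E14.5 epithelium (44), 71 with equal numbers in E14.5 fiber (139), and 15 at the stricter q value in P0.5 fiber (33), and regions in 2 lists were 13 instead of 24 at the stricter q value. Against the median of promoters, the P0.5 over E14.5 fiber ratio was 0.856 for Bfsp1 and 0.878 for Bfsp2. The cause of these shifts was not tested. No paired analysis was possible because the 2 libraries of each group were pooled before peaks were called, and for the same reason no library could be left out.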
